A study of Homo sapiens with 2 samples.

Results

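The locus described here is the stretch of chromosome 11q13 that holds CCND1, ANO1 and CTTN, in a chromatin immunoprecipitation sequencing (ChIP-seq) study of KYSE510 cells, an established line from a human esophageal squamous cell carcinoma. An MLL3 antibody was used on formalin-fixed, sonicated chromatin for 1 library and a GRHL2 antibody for the other, and each library was set against input DNA. No group carries a treatment, and there was no replicate, so nothing here has an error between cultures. The members are all regions of the 2 deposited lists whose summit, the point of strongest signal, lies between positions 69300000 and 70400000 of chromosome 11 (hg19). The bounds were set by position and not by signal. This gave 5 regions, 1 of the 12196 in the MLL3 list and 4 of the 153209 in the GRHL2 list. All 5 lie on an assembled chromosome, and no filter removed any of them.

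Cyclin D1, the product of CCND1, binds CDK4 and CDK6 and drives cells from G1 into S phase. ANO1 encodes a calcium-activated chloride channel, and CTTN encodes cortactin, which binds and stabilises branched actin at the cell edge. The 3 genes are neighbours in a segment that is often amplified in squamous cancers of the esophagus and of the head and neck. MLL3 (KMT2C) places methyl groups on histone H3 lysine 4 at enhancers, and GRHL2 is a DNA-binding factor that maintains epithelial genes.

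The locus held 4 regions of the GRHL2 list and 1 of the MLL3 list. For MLL3 so low a count was not rare on chromosome 11, as the windows below show. No region of either list lay within the body of CCND1, ANO1 or CTTN, and none covered the start of any of the 3 genes. Gene bounds are known here to 1 kb. All 5 regions lay before the start of ANO1, and the 476 kb from there to the end of the locus, with ANO1 and CTTN inside, held none. Most of the locus was taken up by 2 stretches without a GRHL2 summit. One ran for 441 kb from just before CCND1 to a point 29.0 kb before ANO1, and the other for 687 kb from 9.7 kb before ANO1 to a point past the end of the locus. Among the 12696 intervals between neighbouring GRHL2 summits on chromosome 11 these were the fifth and the third longest, against a median interval of 5.21 kb. The longest and the second longest lay between positions 50240676 and 55044689, and the fourth between 91756210 and 92296965.

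**Figure D1:**
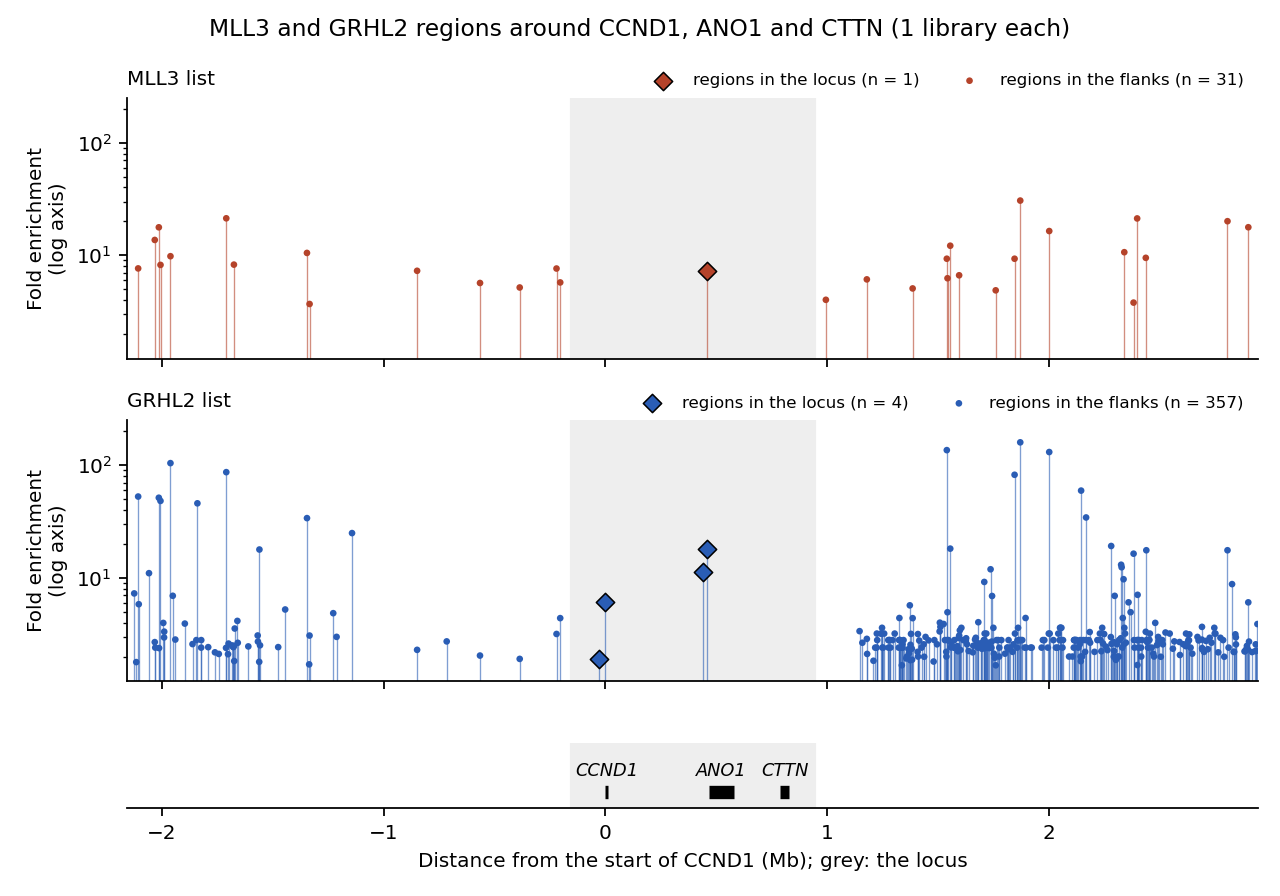
Fold enrichment (log axis) of each MLL3 region (top) and GRHL2 region (bottom) against the distance of its summit from the start of CCND1, in Mb, over the locus (grey) and 2 Mb on either side. Diamonds are the 1 MLL3 and 4 GRHL2 regions of the locus, dots the 31 MLL3 and 357 GRHL2 regions of the flanks, and black bars the genes. All 5 diamonds stand left of ANO1, and the dense row of weak GRHL2 regions on the right starts past the locus.

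CCND1 had a GRHL2 region near its start and no MLL3 region near it. The GRHL2 summit lay 2.0 kb before the start of the gene (69453625 to 69454477, 853 bp wide). Its fold enrichment, the authors' ratio of ChIP signal to local background at the summit, was 6.10, and its −log10 q was 18.6. This made it number 9769 by fold among the 152864 GRHL2 regions on assembled chromosomes, and number 6320 by −log10 q. A second GRHL2 region lay 30.9 kb before CCND1 (69424885 to 69425263, 379 bp wide) with a fold of 1.90 and a −log10 q of 0.62, so its q was above 0.05. The nearest MLL3 summit was 204 kb before the start of CCND1, outside the locus. After the end of CCND1 the next summit of the GRHL2 list came at 426 kb and the next of the MLL3 list at 445 kb.

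ANO1 had the only place in the locus where both lists held a region. The MLL3 region (69913902 to 69914500, 599 bp) had its summit 9.7 kb before the start of ANO1, with a fold of 7.27 and a −log10 q of 24.6. It lay wholly inside a GRHL2 region of 872 bp (69913839 to 69914710) with a fold of 18.2 and a −log10 q of 130. The summits of the pair were 7 bp apart. A further GRHL2 region stood 29.0 kb before ANO1 (69894535 to 69895341, 807 bp), with a fold of 11.3, a −log10 q of 76.1 and no MLL3 region on it. The fold of the paired GRHL2 region was thus the highest of the 4, and that of the region before CCND1 was the third.

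CTTN had no region of either list nearby. The nearest MLL3 summit was 205 kb after its start, past the end of the locus, and the nearest GRHL2 summit was 331 kb before it, the one next to ANO1. Of the 9 other genes of the segment looked up by name, FADD, an adaptor of death receptors, and PPFIA1, a liprin scaffold, follow ANO1 and precede CTTN in the RefSeq order of GRCh38. That interval of 209 kb in hg19 had no region of either list. LTO1 and the fibroblast growth factor genes FGF19, FGF4 and FGF3 follow CCND1 and precede ANO1, an interval in which all 3 summits lay within 29.0 kb of ANO1. TPCN2 and MYEOV precede CCND1, and SHANK2 follows CTTN. None of these 9 genes was placed by coordinate.

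The density of GRHL2 regions in the locus was a small part of that around it. The locus held 3.64 GRHL2 regions per Mb (exact Poisson 95% interval 0.991 to 9.31), against 28.5 per Mb (21.6 to 36.9) in the 2 Mb before it, 150 per Mb (134 to 168) in the 2 Mb after it and 95.2 per Mb (93.5 to 96.9) in the rest of chromosome 11. That is 3.82% of the density of the rest of the chromosome. These intervals do not overlap with that of the locus, but they hold counting error only, as if each region were independent. With 1 library per antibody there is no test over samples. MLL3 had 0.909 regions per Mb in the locus (0.0230 to 5.07), against 7 per Mb (3.83 to 11.7) before it, 8.50 per Mb (4.95 to 13.6) after it and 4.78 per Mb (4.41 to 5.17) in the rest of the chromosome. The interval of the locus overlaps that of each flank alone and that of the rest of the chromosome, but not that of both flanks together, which held 7.75 MLL3 regions per Mb (5.27 to 11).

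Windows of the same 1.1 Mb laid end to end along chromosome 11 show how usual such counts are. Of 120 other windows, 3 had fewer GRHL2 regions than the 4 of the locus, and those 3 windows, between positions 51700000 and 55000000, had no region of either list. Whether reads could be placed there was not examined. The remaining 117 windows all had more GRHL2 regions than the locus. Over all 120 other windows the median was 86 GRHL2 regions (quartiles 56.8 and 153). For MLL3, 18 windows had none and 8 had 1, as the locus did, with a median of 4. Most of the gap between the locus and other windows came from weak GRHL2 regions. At a −log10 q of at least 2, passed by 19.7% of all GRHL2 regions, the locus kept 3 of its 4 regions, against a median of 13.5 in the other windows, and 10 windows had fewer and 8 as many.

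The 4 GRHL2 regions of the locus had medians of width and fold above those of other areas. Their median width was 830 bp and their median fold 8.69, against 478 bp and 2.80 in the flank before the locus, 340 bp and 2.75 in the flank after it and 355 bp and 2.65 in the rest of chromosome 11. The weak region 30.9 kb before CCND1 was 379 bp wide with a fold of 1.90. Its fold was below all 3 medians, and its width was below that of the flank before the locus. No region of the 4 was as narrow as 265 bp, the minimum of the GRHL2 list, against 8 of 57, 83 of 300 and 3338 of 12336 regions in those areas. The MLL3 region was 599 bp wide with a fold of 7.27, against medians of 463 bp and 7.92, 559 bp and 9.31, and 392 bp and 6.75 in the same 3 areas. GRHL2 regions covered 0.265% of the locus, against 1.88% and 7.06% of the flanks and 4.24% of the rest of the chromosome. MLL3 covered 0.0545% of the locus, against 0.339%, 0.469% and 0.221%. With 4 regions and 1 region these medians are descriptions. They were not matched for significance. Of the GRHL2 regions of the locus 75% had a −log10 q of at least 2, against 43.9%, 16% and 14.5% in the same 3 areas.

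Sharing in the locus could not be told apart from that elsewhere. The single MLL3 region met a GRHL2 region by at least 1 bp, which 85% of all MLL3 regions on assembled chromosomes did. In the flanks 14 of 14 and 16 of 17 MLL3 regions did so, and 532 of 620 in the rest of chromosome 11. From the side of GRHL2, 1 of 4 regions met an MLL3 region (25%, exact Clopper-Pearson 95% interval 0.631 to 80.6%). The share was 6.15% over the whole GRHL2 list, 24.6% in the flank before the locus (14.1 to 37.8%), 5.33% in the flank after it (3.08 to 8.52%) and 4.16% in the rest of the chromosome (3.81 to 4.53%).

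The regions of the locus stood on a raised local background. A fold enrichment and a p-value together fix the number of fragments piled up at a summit and the number that the peak caller expected there from the input, and a whole pileup was found for every region of both lists. At the MLL3 region 49 fragments stood against 5.87 expected. At the GRHL2 regions, in order of position, 20 stood against 10.1 expected, 42 against 6.05, 111 against 8.93 and 145 against 7.02. The lowest background in each list, which 22.2% of MLL3 and 42.0% of GRHL2 regions had, was 1.26 and 1.50 fragments. The backgrounds of the locus were thus 4.67 times that lowest value for MLL3 and between 4.03 and 6.71 times for GRHL2. At the pair beside ANO1 the multiple was 4.67 in both lists, which is a single observation if both lists used the same input.

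Such backgrounds were rare elsewhere. The median of the 4 GRHL2 regions, 7.97 fragments, was 4.95 times the 1.61 of the 12693 other GRHL2 regions on chromosome 11, and it was above that of each of the 117 other windows with a GRHL2 region. The 5.87 of the MLL3 region stood beside a median of 1.65 over 651 other regions, and 1 of 102 other windows had a higher median, the one just before the locus. Over the whole GRHL2 list 140 regions (0.0916%) had a background of at least 6.05, the lowest in the locus. On chromosome 11 outside the locus 13 did, 9 of them in the flank before it and none in the flank after it.

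**Figure D2:**
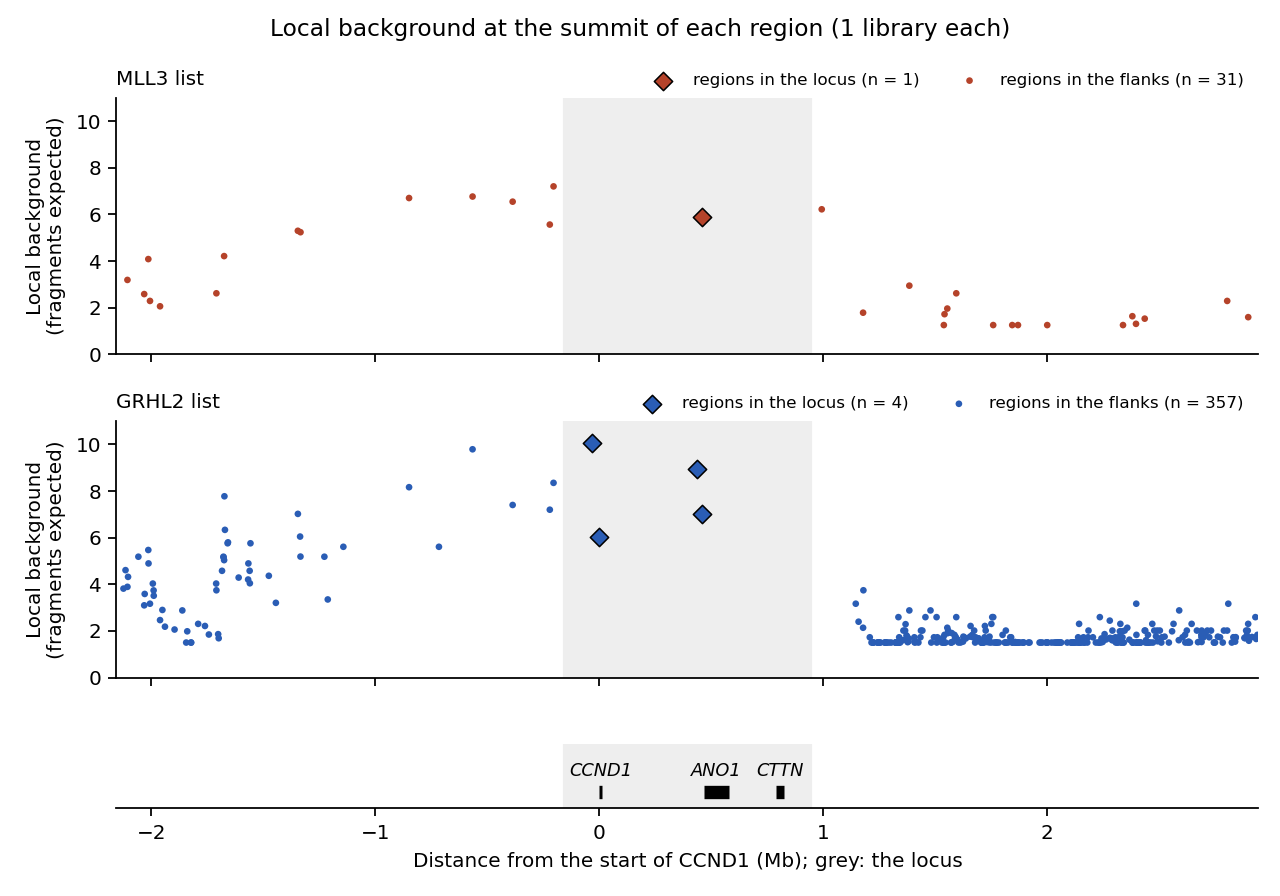
Local background (fragments expected at the summit) of each MLL3 region (top) and GRHL2 region (bottom) against distance from the start of CCND1, in Mb, over the locus (grey) and 2 Mb on either side. Diamonds, the regions of the locus, lie between 5.87 and 10.1 fragments. Dots in the last Mb before the locus lie between 5.57 and 9.79, and GRHL2 dots after it between 1.50 and 3.74.

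The raised background began before the locus and ended soon after it. In the last Mb before the locus the median background was 6.70 fragments over 5 MLL3 regions and 7.40 over 7 GRHL2 regions, and in the Mb before that 3.19 over 9 and 4.03 over 50. The first MLL3 region after the locus, 49.8 kb past its end (70449744 to 70450057, fold 4.02), still had a background of 6.22. The first GRHL2 region after it, 202 kb past the end (70601392 to 70601950, fold 3.36), had 3.17, and the median over the first Mb after the locus was 1.52 over 143 GRHL2 regions. On the other side, the last regions before the locus overlapped each other, with summits 47.9 and 48.0 kb from its bound, MLL3 with a fold of 5.73 and a background of 7.20 and GRHL2 with a fold of 4.39 and a background of 8.35. Copy number in KYSE510 was not analysed here, and the part of the raised background in the low count of regions was not tested. The count by pileup that follows is no such test, because a pileup carries no correction for the background.

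A higher background asks for more fragments before a region is listed. The lowest −log10 p of the GRHL2 list is 1.30. At that value a pileup of 4 is enough on the lowest background and 13 on the median background of the 4 GRHL2 regions of the locus. No background is known for the 476 kb from the start of ANO1 to the end of the locus, which held no summit. All 4 GRHL2 regions of the locus have at least 13, as do 37 of 57 in the flank before it, 26 of 300 in the flank after it and 870 of 12336 (7.05%) in the rest of chromosome 11. Counted this way, the locus has 3.64 GRHL2 regions per Mb (0.991 to 9.31), against 18.5 per Mb (13.03 to 25.5) before it, 13 per Mb (8.49 to 19.0) after it and 6.71 per Mb (6.27 to 7.17) in the rest of the chromosome. The interval of the locus then overlaps those of the flank after it and of the rest of the chromosome, but not that of the flank before it. A pileup of 16 is needed on the highest background of the locus. At that cut the flank before the locus has 13 per Mb (8.49 to 19.0), which overlaps the interval of the locus as well. Overlapping intervals do not show that the densities are alike. For MLL3 the smallest pileup is 8 on the lowest background and 18 on that of the locus, and the densities at 18 or more are 0.909 per Mb (0.0230 to 5.07), against 7 (3.83 to 11.7), 6.50 (3.46 to 11.1) and 2.52 (2.26 to 2.81) in the same order. This way of counting was chosen after the data were seen. Its cuts were set by the background of the locus regions themselves, so regions on a lower background elsewhere could drop out more readily. At a planned cut, a −log10 q of at least 2, the locus had 2.73 GRHL2 regions per Mb (0.562 to 7.97). The flank before it had 12.5 per Mb (8.09 to 18.5) and the flank after it 24 (17.7 to 31.8). The rest of the chromosome had 13.8 per Mb (13.2 to 14.5). At that cut the interval of the locus overlapped none of the others.

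**Figure D3:**
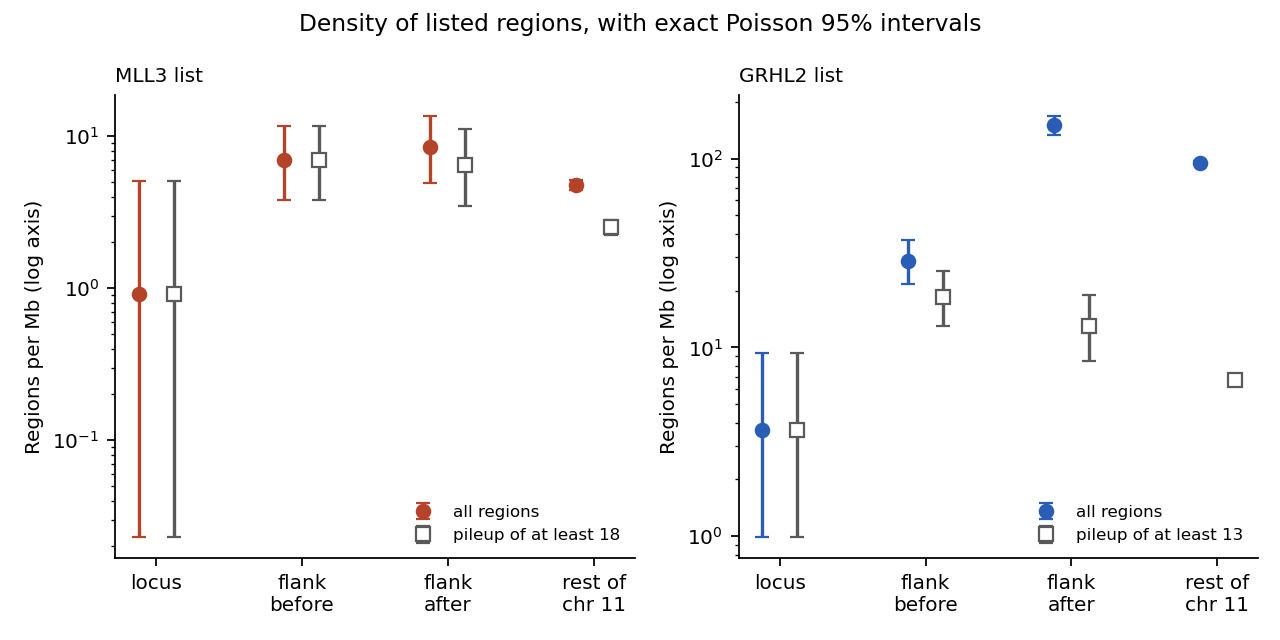
Listed regions per Mb (log axis) for MLL3 (left) and GRHL2 (right) in the locus, the 2 Mb before and after it and the rest of chromosome 11, with exact Poisson 95% intervals that cover counting error only. Filled circles count all regions. Open squares count those with at least the pileup needed on the median background of locus regions (18 for MLL3, 13 for GRHL2). For GRHL2 the rest of the chromosome falls to 6.71 per Mb from circle to square while the locus stays at 3.64. The cut was set by the background of the locus regions themselves, so regions on a lower background elsewhere could drop out more readily.

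Fold enrichment in the locus was low for the significance reached. The GRHL2 region beside ANO1 had a fold of 18.2, and the 12 other GRHL2 regions on chromosome 11 with a −log10 q within 10% of its own had folds of 22.6 to 40.0 (median 32.4), on a median background of 2.26. The region 29.0 kb before ANO1 had a fold of 11.3, against 14.7 to 27.2 in 23 such regions, and the one before CCND1 had 6.10, against 7.27 to 10.4 in 41. The MLL3 region had 7.27, against 7.61 to 13.4 in 36. The weak GRHL2 region had 1.90, against 2.21 to 2.66 in 276. In each of these 5 comparisons the fold in the locus was below every matched region. Just outside the 10% band an MLL3 region before the locus (68606636 to 68607082) had a fold of 7.27 at a −log10 q of 27.4, on a background of 6.70. Fold and q come from the same pileup and background, so this restates the higher background. Ranked by pileup, the GRHL2 region beside ANO1 was number 75 of 12697 on chromosome 11 and by fold number 188, and the MLL3 region was number 50 of 652 by pileup and number 298 by fold. A pileup carries no correction for the background.

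**Figure D4:**
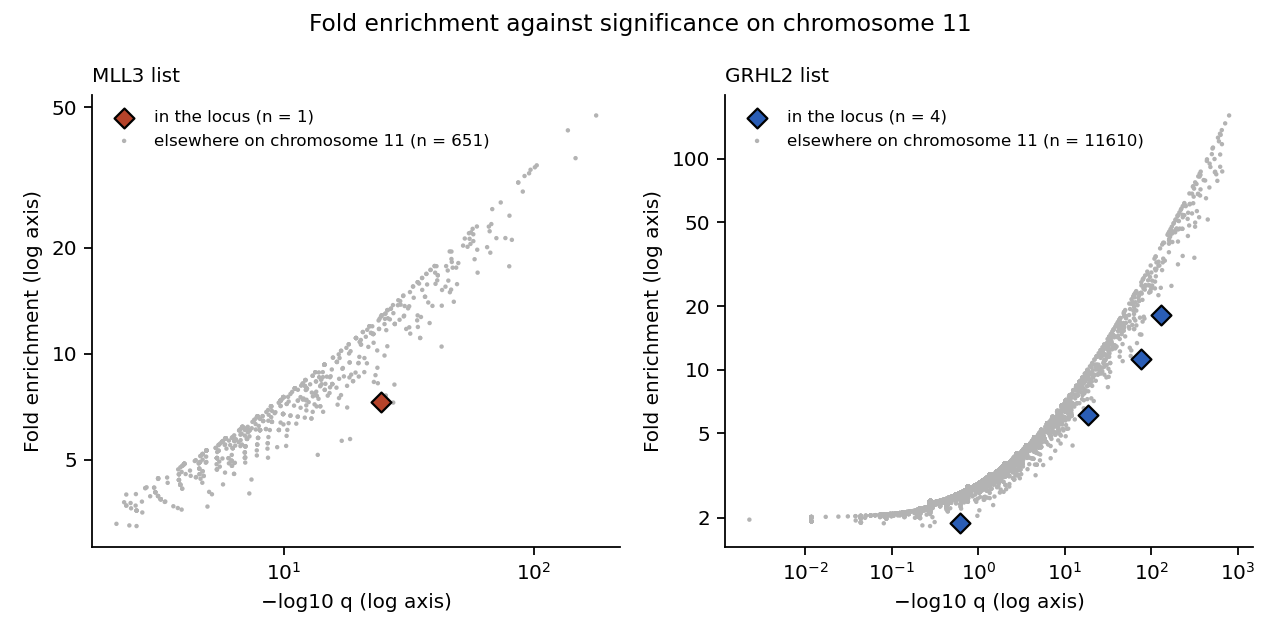
Fold enrichment against −log10 q (both log axes) for the MLL3 (left) and GRHL2 (right) regions of chromosome 11. Diamonds are the regions of the locus and grey dots all others, without the 1083 GRHL2 regions whose −log10 q is 0. Each diamond lies at the lower edge of the dots of like −log10 q.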

How the data were processed

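The authors deposited 1 narrowPeak list for each antibody, called against input. The submitters' processing notes name BWA, Picard, MACS2, deepTools and hg19. Tool versions were not given in the sources used here, nor settings, and without read totals the depth is unknown. The deposited values are a fold enrichment (a ratio), a −log10 p-value, a −log10 q-value, a score that repeats one of these, and the distance to the summit. The MLL3 list ends at a −log10 q of 2.07 and the GRHL2 list at a −log10 p of 1.30.

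Only regions on assembled chromosomes were used (12150 for MLL3, 152864 for GRHL2). The rest of chromosome 11 runs from the first to the last region of either list, without the locus and both flanks. Pileup k and background b were solved from fold = (k + 1)/(b + 1) and p = P(X > k) for a Poisson variable of mean b, the form MACS2 is known to use. The largest misfit in −log10 p was 5.51e-05, and any other whole pileup missed by at least 0.00641. The solver was checked on values with known answers. Intervals are exact at 95% and cover counting error only. Regions named are all those of the locus and the nearest outside it. Gene bounds come in kb with the choice of the locus, and gene order from RefSeq (GRCh38.p14), whose coordinates were not used. Locus, genes and lists were chosen with earlier results of these data known. Python 3.11.15, numpy 2.4.6, pandas 2.3.3, scipy 1.17.1 and matplotlib 3.10.9 were used.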

Additional observations from a re-analysis of the deposited data

How the results depend on the processing

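Of 40 alternative values, 39 stayed within the counting interval of the reported value or within 1.5 times of it, which with 1 MLL3 and 4 GRHL2 regions is a weak check. The exception was the median fold of GRHL2 regions, 8.69 in the locus and 14.7 when the bounds were narrowed to the span from the start of CCND1 to the end of CTTN, which leaves the 2 regions beside ANO1. Stricter thresholds (a −log10 q of at least 2 or 5) left the MLL3 region in place and took away the weak GRHL2 region before CCND1. The MLL3 region has a −log10 q of 24.6, so its values could not move at these thresholds. Both counts by pileup were added after the data were seen, with cuts set by the background of the locus regions themselves. Only values of the locus were followed across the alternatives, not their contrast with other areas. At a pileup of at least 13 the GRHL2 density of the locus stayed at 3.64 per Mb. That of the rest of chromosome 11 fell from 95.2 to 6.71 per Mb. The read depth behind the lists is unknown, and a factor may be bound where its list has no region. No paired analysis was possible because there was a single library for either antibody.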
